A study of Mus musculus with 12 samples.

Results

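The response of control mouse monocytes to lipopolysaccharide (LPS) was read from 6 of the 12 libraries of the series, chosen by their labels: 3 of unstimulated control monocytes and 3 of control monocytes cultured with LPS for 4 h. In all groups the cells came from bone marrow and were isolated as positive for CD11b, a myeloid integrin, and high for Ly6C, a surface marker of classical inflammatory monocytes. Control mice received no succinate. The other 6 libraries came from mice given succinate (300 mM, 7 days) and enter here only the shared estimate of spread and a single test at the end. The labels give no strain, age, LPS dose or culture medium. Since they also leave unsaid whether the libraries of a group are separate mice, each p-value reflects the spread of these libraries alone, and that spread may be technical.

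LPS, from the outer membrane of Gram-negative bacteria, is passed by CD14 to the complex of Toll-like receptor 4 (TLR4) and MD-2. The adaptor MyD88 then leads to NF-kB and AP-1, the transcription factors of early inflammatory genes, while the adaptors TRAM and TRIF lead to IRF3, interferon beta and, through its receptor, to interferon-stimulated genes. In monocytes the known outcome is a burst of cytokines and chemokines, an antiviral program and the feedback inhibitors of both.

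Promoters of 5 genes are shown because NF-kB and interferon-driven factors are the known endpoints of these pathways. The letters are RefSeq's (GRCm38.p6), 250 bases that end just before the RefSeq start site, written 5′ to 3′ along the gene's strand. Capitals mark matches on either strand to the NF-kB consensus or to the interferon-stimulated response element (ISRE, searched as GAAA, any 2 bases, GAAA). Cxcl10, Gbp5 and Il19 were chosen because they rose at least 4-fold and held both kinds of match. Among genes with a promoter in the RefSeq table, Smad3 and Fam102a had the smallest p of the falls of at least 4-fold. They were chosen without regard to matches.
Cxcl10, chr5:92348890-92349139, minus strand: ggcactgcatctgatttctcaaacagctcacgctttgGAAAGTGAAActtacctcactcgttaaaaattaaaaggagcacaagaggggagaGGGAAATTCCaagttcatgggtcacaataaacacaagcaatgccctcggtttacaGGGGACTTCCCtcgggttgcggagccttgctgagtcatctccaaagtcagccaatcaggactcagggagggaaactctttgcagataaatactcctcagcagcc
Gbp5, chr3:142496684-142496933, plus strand: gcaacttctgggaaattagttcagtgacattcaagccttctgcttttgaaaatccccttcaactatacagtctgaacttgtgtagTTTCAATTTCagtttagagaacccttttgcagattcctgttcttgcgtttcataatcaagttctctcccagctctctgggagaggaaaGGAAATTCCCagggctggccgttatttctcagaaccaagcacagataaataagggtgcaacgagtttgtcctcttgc
Il19, chr1:130940116-130940365, minus strand: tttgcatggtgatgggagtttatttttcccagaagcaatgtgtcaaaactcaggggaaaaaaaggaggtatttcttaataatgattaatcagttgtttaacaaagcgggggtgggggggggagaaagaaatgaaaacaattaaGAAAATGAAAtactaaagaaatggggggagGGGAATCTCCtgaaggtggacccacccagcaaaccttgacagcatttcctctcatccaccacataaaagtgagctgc
Smad3, chr9:63757995-63758244, minus strand: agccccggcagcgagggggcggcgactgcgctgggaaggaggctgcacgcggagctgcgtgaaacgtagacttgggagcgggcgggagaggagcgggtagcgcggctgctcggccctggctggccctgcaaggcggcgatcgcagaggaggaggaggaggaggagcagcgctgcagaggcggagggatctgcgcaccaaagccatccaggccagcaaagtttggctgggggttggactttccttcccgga
Fam102a, chr2:32535109-32535358, plus strand: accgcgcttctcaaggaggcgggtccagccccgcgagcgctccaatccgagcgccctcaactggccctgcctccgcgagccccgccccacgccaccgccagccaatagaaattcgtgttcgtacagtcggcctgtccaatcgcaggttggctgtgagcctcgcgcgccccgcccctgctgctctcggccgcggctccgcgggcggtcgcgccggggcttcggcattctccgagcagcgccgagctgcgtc

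In Cxcl10 the ISRE match lay 213 to 204 bases before the start, an NF-kB match 159 to 150 bases before it, and a pair of overlapping NF-kB matches 104 to 94 bases before it. The NF-kB match of Gbp5 and that of Il19 lay at the same distance, 77 to 68 bases before the start. The Gbp5 window lies inside the gene as GENCODE M21 draws it. No match was found in the windows of Smad3 and Fam102a. Since only the rising genes were chosen for their matches, this difference follows from the choice and says nothing of rising and falling genes. Over all 27025 promoters of the RefSeq table, 7.01% held an NF-kB match and 3.04% an ISRE match in a window of this length. Of the 9549 tested protein-coding genes with a promoter in the table, 24 (0.251%) held both. A match describes letters, not binding. Only 77.8% of the protein-coding genes that rose at least 2-fold could be matched to a promoter, so a comparison of motif shares between rising and other genes is void and none is given.

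Total counts of the 6 libraries lay between 15975882 and 17542158, and 19429 to 20796 genes had a count in each. Over the 6 libraries, 70.2% of the variance in log2 CPM lay on a first component that separated LPS from no LPS, and 12.1% on a second at whose lower end LPS replicate 3 stood. The libraries also differed in 5 transcripts (S100a4, Rpl24, Rpl10-ps3, Gm14303 and Rpl35a-ps2): their mean log2 CPM was 3.82 to 4.03 in unstimulated replicates 2 and 3 and in LPS replicate 3, and 1.08 to 1.46 in the other 3. Levels below are CPM, counts per 1000000 after trimmed-mean scaling, listed in the order of replicates 1, 2 and 3. Changes are log2 fold changes ± SE, LPS minus unstimulated, with n = 3 libraries in each group. Adjusted p-values are from edgeR's quasi-likelihood test with Benjamini-Hochberg adjustment over 14324 genes, and a gene is said to have risen or fallen where that value was below 0.05. In bulk samples such as these, fewer cells of a type and less RNA per cell cannot be told apart.

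LPS moved about as many genes down as up, but the rises were larger. With scaling by library size alone, 1865 genes rose and 2651 fell. Of the genes tested, 30.1% were called: 2190 rose (15.3%) and 2116 fell (14.8%). The median log2 fold change was 1.12 among genes that rose and -0.86 among genes that fell. By at least 2-fold, 1196 genes rose (8.35%) and 888 fell (6.2%), and by at least 16-fold, 164 genes rose (1.14%) and 20 fell (0.14%). The median unstimulated level was 20.3 CPM for genes that rose, 43.6 CPM for genes that fell and 17.0 CPM for all genes tested. With LPS the median was 45.0 CPM for genes that rose and 23.4 CPM for genes that fell. Sorting genes by direction by itself favours such a difference at the start. The 1196 genes that rose at least 2-fold took 5.97 ± 0.204% (SD, n = 3) of all counts without LPS and 18.9 ± 1.25% with it. The 888 genes that fell at least 2-fold went from 11.0 ± 0.548% to 3.74 ± 0.149%. The gene with the smallest p of all was Edn1, which encodes the vasoconstrictor peptide endothelin 1, at 3.82, 3.73 and 3.68 CPM without LPS and 223, 272 and 303 CPM with it (6.15 ± 0.21, adjusted p = 3.38e-10).

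**Figure D1:**
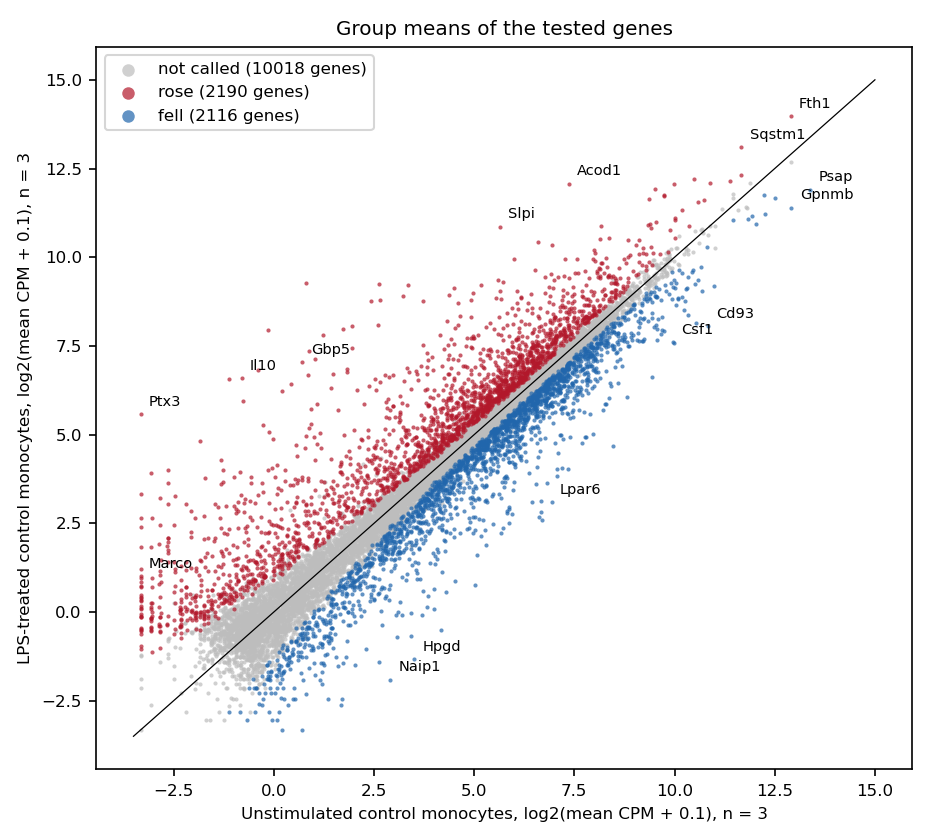
Mean level of each tested gene without LPS (horizontal axis) and with LPS (vertical axis) in control monocytes, as log2(mean CPM + 0.1) over 3 libraries per group. Red genes rose (2190), blue genes fell (2116), grey genes were not called, and the diagonal marks equal levels. Ptx3 and Il10 start near the lowest levels and end far above the diagonal, while Psap and Gpnmb lie below it at a high level.

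The transcripts that gained the most CPM included stress and defence genes already expressed at rest. Fth1, the heavy chain of the iron store ferritin, had 8350, 6534 and 7949 CPM without LPS and 18100, 15298 and 15081 CPM with it (1.09 ± 0.15, adjusted p = 6.3e-05). Reads of its pseudogene copies may be mixed in. Sqstm1, the autophagy receptor p62, had 3384, 3068 and 3280 CPM without LPS and 10603, 8561 and 7219 CPM with it (1.44 ± 0.18, adjusted p = 2.38e-05). Acod1, which makes itaconate from a TCA cycle intermediate, had 134, 180 and 181 CPM without LPS and 4887, 3907 and 4112 CPM with it (4.7 ± 0.23, adjusted p = 2.33e-09). In each of these genes every LPS library lay above every unstimulated one. Clec4e (Mincle), a receptor for mycobacterial and fungal glycolipids, had 713, 702 and 761 CPM without LPS and 4925, 3749 and 3049 CPM with it (2.43 ± 0.22). Mapkapk2, a kinase downstream of p38, had 711, 875 and 958 CPM without LPS and 3284, 3243 and 3706 CPM with it (2.01 ± 0.13). Cybb, the catalytic subunit of the phagocyte oxidase, had 930, 1054 and 1054 CPM without LPS and 4536, 4105 and 4205 CPM with it (2.08 ± 0.13). Il1rn, the antagonist that blocks the interleukin 1 receptor, was in this group as well, at 687, 660 and 632 CPM without LPS and 3002, 2885 and 3651 CPM with it (2.27 ± 0.24).

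The largest losses of CPM included genes of lysosomes, lipid handling and growth factor supply. Psap, the precursor of the saposins that assist lysosomal lipid breakdown, had 10050, 10270 and 11579 CPM without LPS and 4734, 3505 and 3291 CPM with it (-1.47 ± 0.18, adjusted p = 2.08e-05). Gpnmb, a glycoprotein of lysosomes and melanosomes, had 7819, 6884 and 8468 CPM without LPS and 3380, 2590 and 2132 CPM with it (-1.52 ± 0.22, adjusted p = 8.18e-05). Apoe, which carries cholesterol out of macrophages, had 1366, 1321 and 1743 CPM without LPS and 328, 303 and 220 CPM with it (-2.38 ± 0.3, adjusted p = 1.88e-05). These 3 genes fell without any overlap between the groups. Cd93, a surface glycoprotein of myeloid cells, had 1610, 1863 and 1961 CPM without LPS and 273, 234 and 287 CPM with it (-2.77 ± 0.25). Slc6a6, the taurine transporter, had 1184, 1249 and 1214 CPM without LPS and 370, 354 and 363 CPM with it (-1.74 ± 0.1). Csf1, the growth factor that sustains monocytes and macrophages, had 1015, 929 and 1059 CPM without LPS and 265, 174 and 148 CPM with it (-2.35 ± 0.19). Its receptor Csf1r was not called (-0.39 ± 0.23, adjusted p = 0.232).

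**Figure D2:**
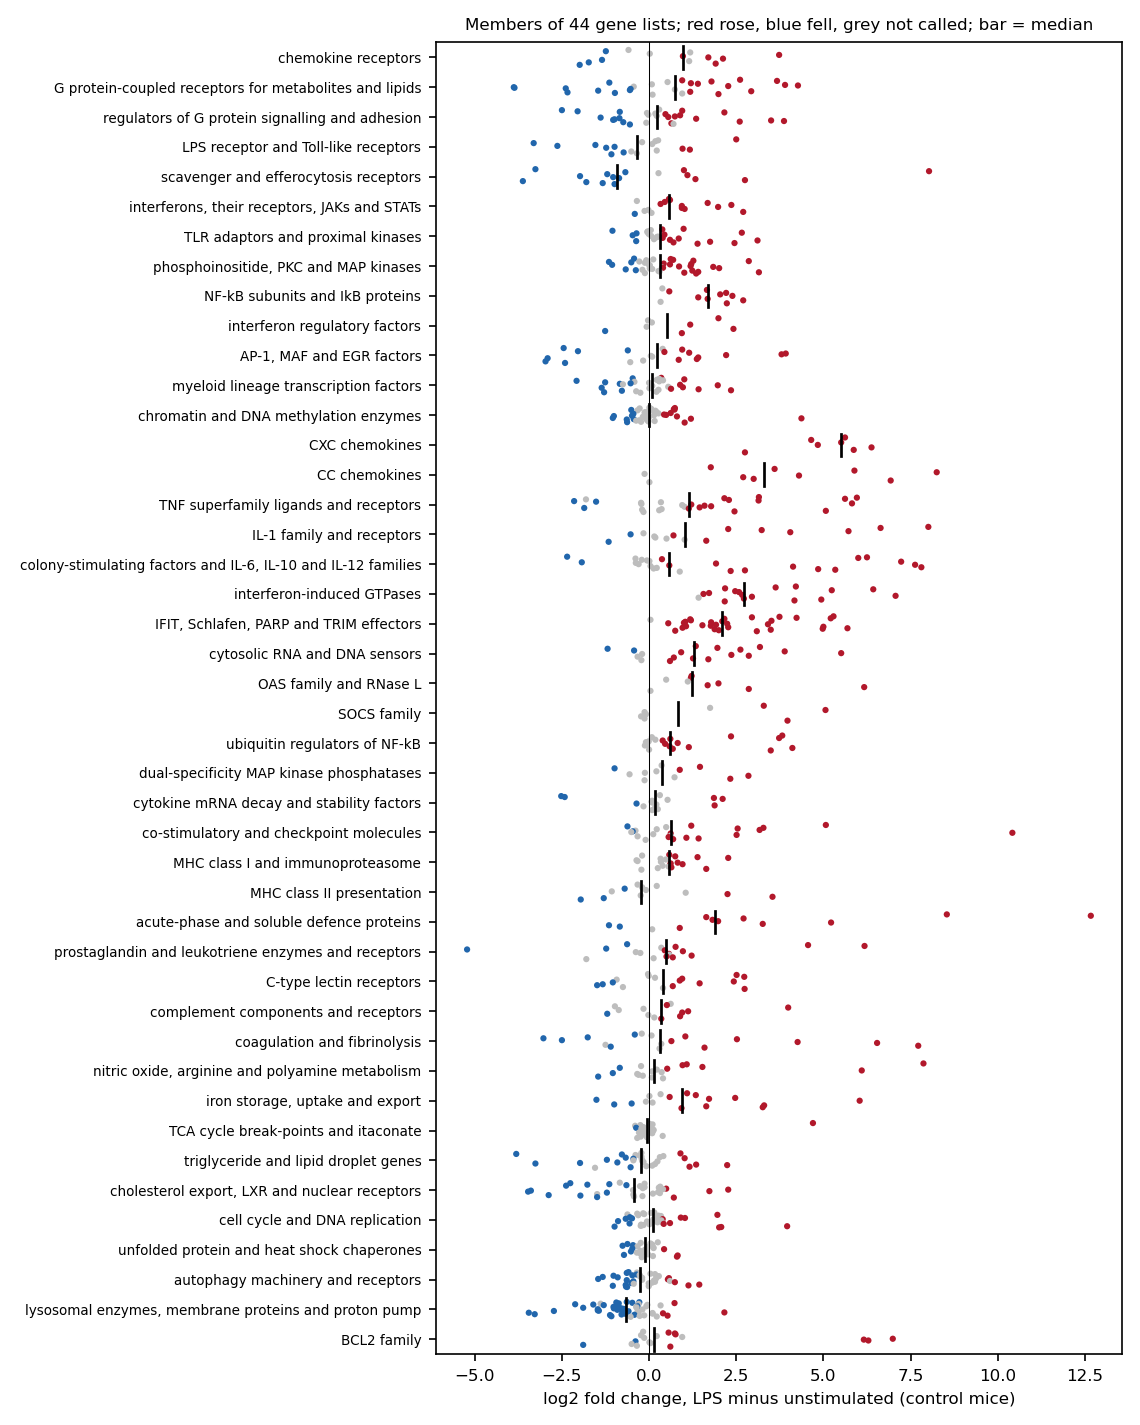
Log2 fold change (LPS minus unstimulated, horizontal axis) of each tested member of 44 gene lists, 1 point per gene and 1 row per list. The vertical bar in each row marks the list's median, which runs from -0.92 for scavenger and efferocytosis receptors to 5.51 for CXC chemokines.

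Among the receptors, the LPS receptor itself was not called, while 3 receptors for RNA fell. In the Toll-like receptor list, 17 members were tested, and 3 rose, 7 fell and 7 were not called (median log2 fold change -0.35, against -0.004 over all genes tested). Tlr4 had 81.2, 107 and 72.9 CPM without LPS and 56.5, 75.4 and 95.6 CPM with it (-0.2 ± 0.18, adjusted p = 0.443), and the groups overlapped. Tlr2, a receptor for bacterial lipoproteins, was not called either (0.26 ± 0.2, adjusted p = 0.39). The co-receptors rose: Cd14 had 1417, 1639 and 1581 CPM without LPS and 2892, 2685 and 3436 CPM with it (0.96 ± 0.16, adjusted p = 0.000238). Ly96, which encodes MD-2, had 4.69, 4.57 and 3.99 CPM without LPS and 12.1, 10.8 and 6.8 CPM with it (1.17 ± 0.26, adjusted p = 0.00317). Tlr1, which pairs with TLR2, had 8.62, 11.4 and 10.1 CPM without LPS and 81.9, 50.7 and 37.6 CPM with it (2.5 ± 0.3, adjusted p = 1.16e-05), so all 3 LPS libraries were several times higher, LPS replicate 3 the least. The endosomal RNA receptor Tlr7 had 252, 286 and 263 CPM without LPS and 93, 83.7 and 97.9 CPM with it (-1.54 ± 0.14, adjusted p = 6.87e-07), with no overlap. Tlr8 had 6.71, 9.32 and 5.62 CPM without LPS and 1.34, 0.974 and 1.15 CPM with it (-2.63 ± 0.35), and Tlr13, a sensor of bacterial ribosomal RNA, changed by -1.23 ± 0.18. Cnpy3, a chaperone that Toll-like receptors need to leave the endoplasmic reticulum, fell with them (-1.08 ± 0.13).

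Downstream of the receptors, genes of both activating and inhibitory components rose. Among the genes for TLR adaptors and proximal kinases, 24 members were tested, and 12 rose, 4 fell and 8 were not called. Ikbke, a kinase that activates IRF3, had 95.5, 92.3 and 87.9 CPM without LPS and 817, 795 and 765 CPM with it (3.11 ± 0.11, adjusted p = 3.56e-10). Irak3, a member of the IRAK family that inhibits signalling, had 63.5, 67.9 and 68.8 CPM without LPS and 358, 415 and 491 CPM with it (2.66 ± 0.16, adjusted p = 1.15e-08). In both, each LPS library was several times above each unstimulated one. Myd88 rose too (0.99 ± 0.12). Ticam2, which encodes TRAM, the bridge from TLR4 to TRIF, fell, from 25.3, 18.8 and 19.3 CPM to 8.84, 11.8 and 10 CPM (-1.05 ± 0.25, adjusted p = 0.0049). For phosphoinositide, PKC and MAP kinases, 37 members were tested, and 17 rose, 6 fell and 14 were not called. Pik3r6, a regulatory subunit of the gamma form of phosphoinositide 3-kinase, had 15.6, 15.8 and 15.2 CPM without LPS and 117, 117 and 105 CPM with it (2.86 ± 0.11). Inpp5d, the phosphatase SHIP1 that acts against this kinase, had 250, 275 and 261 CPM without LPS and 125, 117 and 113 CPM with it (-1.15 ± 0.1). The survival kinase Pim2 had 5.15, 3.13 and 3.49 CPM without LPS and 25, 32.3 and 47.6 CPM with it (3.15 ± 0.29).

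Of the transcription factors that carry the signal, the NF-kB list held no fall: 11 members were tested, and 9 rose, 0 fell and 2 were not called (median 1.68). Nfkbiz, the nuclear co-factor of secondary NF-kB targets, had 32.5, 37.6 and 32.5 CPM without LPS and 188, 235 and 245 CPM with it (2.7 ± 0.22, adjusted p = 2.65e-07). Nfkbia, the inhibitor that returns NF-kB to the cytoplasm, had 189, 181 and 197 CPM without LPS and 972, 1033 and 981 CPM with it (2.39 ± 0.17, adjusted p = 6.6e-08). Bcl3, a nuclear regulator of NF-kB dimers, had 37.9, 53 and 54.7 CPM without LPS and 185, 203 and 297 CPM with it (2.23 ± 0.18). Nfkb2 and Relb, the subunits of the non-canonical pathway, changed by 2.04 ± 0.14 and 1.66 ± 0.13. Rela, the transactivating subunit, was not called (0.38 ± 0.16, adjusted p = 0.0938).

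The interferon regulatory factors, AP-1 and lineage lists held moves in opposite directions. Among interferon regulatory factors, 8 members were tested, and 4 rose, 1 fell and 3 were not called. Irf7, the amplifier of type I interferon, had 6.36, 10.3 and 9.86 CPM without LPS and 56.6, 37.8 and 47.9 CPM with it (2.42 ± 0.25, adjusted p = 3.49e-06). Irf1 had 40.9, 43.6 and 42.6 CPM without LPS and 223, 160 and 123 CPM with it (1.99 ± 0.17). Irf8, a factor that sets monocyte identity, had 82.1, 110 and 108 CPM without LPS and 41.5, 33.1 and 50.5 CPM with it (-1.26 ± 0.29, adjusted p = 0.0042). Irf3, the factor that TRIF activates after translation, was not called (0.08 ± 0.11, adjusted p = 0.625). In the AP-1, MAF and EGR list, 20 members were tested, and 9 rose, 6 fell and 5 were not called. Batf had 7.17, 5.71 and 7.36 CPM without LPS and 91.5, 94.1 and 121 CPM with it (3.92 ± 0.17, adjusted p = 9.66e-10), and Egr1, an immediate early gene, had 27.6, 47.4 and 40.1 CPM without LPS and 3.72, 3.7 and 7.24 CPM with it (-2.97 ± 0.31, adjusted p = 2.86e-06). In both of these genes the groups were well apart. In the myeloid lineage list, 31 members were tested, and 8 rose, 8 fell and 15 were not called; Ets2 rose (2.35 ± 0.2) and Klf4, which promotes monocyte differentiation, fell (-2.08 ± 0.15). In the list of interferons, their receptors, JAKs and STATs, 16 members were tested, and 11 rose, 1 fell and 4 were not called. Jak2 had 130, 126 and 128 CPM without LPS and 659, 611 and 705 CPM with it (2.36 ± 0.13, adjusted p = 4e-09) and Stat5a had 41, 48.6 and 56.7 CPM without LPS and 279, 279 and 393 CPM with it (2.7 ± 0.21). Among chromatin and DNA methylation enzymes, 40 members were tested, and 10 rose, 8 fell and 22 were not called, a mixed list whose largest rise was Tet1, an enzyme that oxidises methylcytosine, at 1.68, 1.98 and 1.56 CPM without LPS and 27, 36.4 and 44.7 CPM with it (4.37 ± 0.33, adjusted p = 1.21e-07). Its relative Tet2 had 82, 109 and 93.7 CPM without LPS and 183, 198 and 273 CPM with it (1.2 ± 0.17).

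Of the 45 gene lists, those of CXC and CC chemokines had the highest medians. All 7 CXC chemokines tested rose (median 5.51, or 5.28 with genes without unstimulated counts at their lower bound), and another 7 had too few counts to test. Cxcl10, which attracts T cells and is a target of interferon and NF-kB, had 4.05, 6.73 and 4.93 CPM without LPS and 456, 377 and 479 CPM with it (6.38 ± 0.24, adjusted p = 4.04e-10). Cxcl2, a neutrophil attractant, had 28.1, 19.7 and 19 CPM without LPS and 676, 653 and 345 CPM with it (4.65 ± 0.39, adjusted p = 3.5e-07), with LPS replicate 3 below the other 2. Cxcl16 had 20.2, 38.5 and 36.3 CPM without LPS and 245, 191 and 202 CPM with it (2.75 ± 0.25). Cxcl11 had no count without LPS and reached 0.549, 0.584 and 0.128 CPM in the LPS libraries, a rise of at least 7.02-fold when set against 3 counts over the unstimulated group, a bound that covers counting error only. For the CC chemokines, 10 members were tested, and 8 rose, 0 fell and 2 were not called. Ccl3, which attracts monocytes and T cells, had 63.9, 46.8 and 46.9 CPM without LPS and 594, 678 and 635 CPM with it (3.6 ± 0.2, adjusted p = 5.67e-09). Ccl9 had 93.8, 119 and 110 CPM without LPS and 710, 629 and 766 CPM with it (2.7 ± 0.31).

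In the list of colony-stimulating factors and the IL-6, IL-10 and IL-12 families, 25 members were tested, and 13 rose, 2 fell and 10 were not called. Il6, the inducer of the acute-phase response, had 0.0579, 0.421 and 0.0624 CPM without LPS and 29.2, 23.8 and 31.6 CPM with it (7.23 ± 0.55, adjusted p = 1.46e-07), and its log2 fold change was 8.73 without unstimulated replicate 2. Il10, the main anti-inflammatory cytokine of monocytes, had 0.636, 0.601 and 0.187 CPM without LPS and 89.5, 115 and 84.2 CPM with it (7.63 ± 0.34, adjusted p = 9.66e-10). Il12a, which encodes the p35 subunit shared by IL-12 and IL-35, had 3.64, 2.82 and 2.37 CPM without LPS and 56.6, 50.6 and 48.8 CPM with it (4.13 ± 0.25, adjusted p = 1.34e-08). Its partner subunits rose too: Il12b went from 1 count over the unstimulated group to 291 counts, a ratio of 307-fold (95% counting interval 54.6 to 12153) whose 1 count lay in unstimulated replicate 3, and Ebi3 changed by 2.34 ± 0.14. Csf3, the granulocyte growth factor, had 0.231, 0 and 0.125 CPM without LPS and 4.39, 8.31 and 11.8 CPM with it (6.0 ± 0.6, adjusted p = 2.18e-06; 6.89 without unstimulated replicate 1). Il19, whose promoter is shown above, went from 1 count over the group to 37, a ratio of 39-fold (95% counting interval 6.58 to 1581) whose 1 count lay in unstimulated replicate 1. The IL-6 receptor chain Il6ra fell, from 182, 206 and 198 CPM to 47.4, 44.5 and 61.7 CPM (-1.93 ± 0.13, adjusted p = 5.42e-08), while its ligand rose.

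In the IL-1 family, 15 members were tested, and 8 rose, 2 fell and 5 were not called. Il1b, the secreted form that needs the inflammasome for release, had 3.88, 8.47 and 5.93 CPM without LPS and 353, 352 and 1122 CPM with it (6.64 ± 0.51, adjusted p = 1.71e-07). LPS replicate 3 stood well above the other 2, and without it the log2 fold change was 5.88. Il1f9, the epithelial and myeloid cytokine IL-36 gamma, had 45.4, 35.3 and 27.3 CPM without LPS and 582, 614 and 591 CPM with it (4.05 ± 0.35, adjusted p = 4.84e-07), with LPS libraries that lay close together. In the TNF superfamily, 27 members were tested, and 14 rose, 3 fell and 10 were not called. Tnf itself had 52.6, 50 and 49.3 CPM without LPS and 497, 492 and 358 CPM with it (3.15 ± 0.19, adjusted p = 1.2e-08). Tnfsf9, the 4-1BB ligand of T cell co-stimulation, had 3.12, 2.88 and 3.24 CPM without LPS and 17, 14.2 and 14.2 CPM with it (2.29 ± 0.19). Tnfsf12, which encodes TWEAK, had 36.2, 37.3 and 41.9 CPM without LPS and 9.63, 8.37 and 7.95 CPM with it (-2.15 ± 0.13, adjusted p = 1.77e-08) and was thus lower in all LPS libraries.

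Most genes tested of the interferon program rose. Of the interferon-induced GTPases, 17 members were tested, and 16 rose, 0 fell and 1 was not called (median 2.72). In the list of IFIT, Schlafen, PARP and TRIM effectors, 31 members were tested, and 30 rose, 0 fell and 1 was not called. Gbp5, a guanylate-binding protein that coats intracellular bacteria, had 0.81, 1.68 and 2.12 CPM without LPS and 157, 109 and 130 CPM with it (6.43 ± 0.36, adjusted p = 6.19e-09). Mx1, which blocks viral replication, had 2.6, 3.55 and 1.56 CPM without LPS and 109, 67.5 and 61.7 CPM with it (4.94 ± 0.29, adjusted p = 9.51e-09). Ifit1, which binds foreign RNA caps, had 1.79, 3.43 and 2.87 CPM without LPS and 129, 89.5 and 98 CPM with it (5.29 ± 0.29, adjusted p = 5.25e-09). In these genes the LPS libraries were separated from the unstimulated ones by an order of magnitude or more, and LPS replicate 1 was the highest. Isg15, a ubiquitin-like modifier, had 4.86, 2.76 and 2.68 CPM without LPS and 128, 115 and 84.2 CPM with it (4.98 ± 0.36). Parp14 had 38.1, 56.3 and 55.4 CPM without LPS and 587, 467 and 540 CPM with it (3.41 ± 0.17). Usp18, the protease that removes ISG15 and damps the interferon receptor, changed by 3.49 ± 0.31. Guanylate-binding, Schlafen and Ifi200 genes have near-identical copies, so values of single members are uncertain.

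Most cytosolic sensors of RNA and DNA rose, while the adaptor Mavs fell. Of these sensors, 18 members were tested, and 13 rose, 2 fell and 3 were not called. Ifih1, which encodes the RNA sensor MDA5, had 16.7, 22.9 and 17.4 CPM without LPS and 200, 159 and 156 CPM with it (3.18 ± 0.19, adjusted p = 1.29e-08). Ifi205, of the Ifi200 family of DNA-binding proteins, had 2.08, 5.53 and 3.74 CPM without LPS and 206, 141 and 171 CPM with it (5.51 ± 0.44, adjusted p = 2.65e-07). Mavs, the mitochondrial adaptor through which MDA5 signals, had 11, 12.3 and 12.4 CPM without LPS and 6.22, 5.06 and 4.3 CPM with it (-1.19 ± 0.3, adjusted p = 0.00704) and lay lower in each LPS library. Of the OAS family and RNase L, 9 members were tested, and 6 rose, 0 fell and 3 were not called. The interferon genes Ifnb1 and Ifng had too few counts to be tested at 4 h, and Ifng had none.

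Some feedback inhibitors rose. In the SOCS list, 8 members were tested, and 3 rose, 0 fell and 5 were not called. Socs1, an inhibitor of JAK kinases, had 1.91, 0.962 and 1.19 CPM without LPS and 10.8, 10.2 and 19.1 CPM with it (3.29 ± 0.42, adjusted p = 2.61e-05). Among ubiquitin regulators of NF-kB, 19 members were tested, and 12 rose, 0 fell and 7 were not called. Traf1 had 19, 27.4 and 26 CPM without LPS and 470, 387 and 395 CPM with it (4.11 ± 0.23, adjusted p = 7.56e-09). Tnip3, a partner of the deubiquitinase A20, had 5.79, 9.44 and 8.05 CPM without LPS and 90.1, 74.9 and 143 CPM with it (3.73 ± 0.3, adjusted p = 2.69e-07). All 3 genes were higher in every LPS library. Among the phosphatases that switch off MAP kinases, 11 members were tested, and 4 rose, 1 fell and 6 were not called. Dusp16, which acts on JNK, had 18.1, 22.2 and 21.8 CPM without LPS and 79.8, 89.7 and 143 CPM with it (2.33 ± 0.25), and Dusp3 fell (-0.99 ± 0.2). Among mRNA decay and stability factors, 17 members were tested, and 3 rose, 3 fell and 11 were not called, shares of 17.6% and 17.6% against 15.3% and 14.8% of all genes. Zc3h12a (Regnase-1), which cleaves Il6 mRNA, had 37.2, 37.7 and 36.1 CPM without LPS and 101, 139 and 162 CPM with it (1.86 ± 0.16, adjusted p = 6.53e-07). Its relative Zc3h12c had 89.3, 92.7 and 80.9 CPM without LPS and 468, 377 and 289 CPM with it (2.11 ± 0.28, adjusted p = 3.24e-05). Of the TTP family, which binds AU-rich elements, Zfp36l2 had 964, 1097 and 992 CPM without LPS and 170, 188 and 213 CPM with it (-2.42 ± 0.12, adjusted p = 1.89e-09). Zfp36l1 had 21.6, 45.2 and 36.7 CPM without LPS and 3.6, 4.22 and 10.3 CPM with it (-2.52 ± 0.41, adjusted p = 0.000258), with LPS replicate 3 the highest of its group and -3.11 without it. Zfp36, which encodes TTP itself, was not called (0.31 ± 0.13, adjusted p = 0.0741).

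Genes of antigen presentation by MHC class I rose or were not called. For MHC class I and the immunoproteasome, 20 members were tested, and 10 rose, 0 fell and 10 were not called. Tap1, a subunit of the peptide transporter, rose (0.82 ± 0.17, adjusted p = 0.00172), as did the loading factor Tapbp (0.96 ± 0.13). H2-Q7, a non-classical class I gene with close copies, had 11.3, 17.2 and 19 CPM without LPS and 112, 60.4 and 57.1 CPM with it (2.27 ± 0.25). For class II, 12 members were tested, and 2 rose, 3 fell and 7 were not called, which is 16.7% and 25%, against 15.3% and 14.8% of all genes. Ciita, the master regulator of class II genes, had 0.579, 1.32 and 1.44 CPM without LPS and 14, 9.22 and 15.6 CPM with it (3.54 ± 0.46, adjusted p = 2.61e-05). The invariant chain Cd74, its target, was not called (-0.24 ± 0.27, adjusted p = 0.563). Proteases that trim class II cargo fell: Lgmn had 1231, 1246 and 1428 CPM without LPS and 365, 299 and 338 CPM with it (-1.96 ± 0.24, adjusted p = 1.68e-05) and Ctss had 1338, 1036 and 1109 CPM without LPS and 577, 450 and 387 CPM with it (-1.3 ± 0.24, adjusted p = 0.000611). Of the co-stimulatory and checkpoint molecules, 22 members were tested, and 12 rose, 2 fell and 8 were not called. Icosl, the ligand of ICOS on T cells, had 22.1, 20.3 and 18.5 CPM without LPS and 193, 178 and 179 CPM with it (3.17 ± 0.15, adjusted p = 1.28e-09). Cd274, which encodes the checkpoint ligand PD-L1, had 95.9, 77.2 and 83.7 CPM without LPS and 602, 463 and 431 CPM with it (2.54 ± 0.17, adjusted p = 5.18e-08). Cd69 had 3.59, 3.01 and 3.18 CPM without LPS and 27.6, 35.6 and 32.2 CPM with it (3.28 ± 0.16). In these 3 genes every LPS library lay above every unstimulated one.

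Among effector enzymes, genes that make a product and genes that break it down moved in opposite directions for prostaglandin E2. In the arginine and polyamine list, 18 members were tested, and 6 rose, 3 fell and 9 were not called. Nos2, the inducible nitric oxide synthase, went from 3 counts over the unstimulated group to 744, a ratio of 261-fold (95% counting interval 89.1 to 1270), with 9.88, 9.41 and 28 CPM in the LPS libraries. LPS replicate 3 was the highest of these, and the fitted log2 fold change was 7.19 without it and 8.74 without unstimulated replicate 2. Slc7a2, which imports its substrate arginine, had 0.926, 0.962 and 1.87 CPM without LPS and 85.9, 90.2 and 81.4 CPM with it (6.1 ± 0.26, adjusted p = 7.42e-10). Gch1, which starts the synthesis of its cofactor tetrahydrobiopterin, had 26, 26.7 and 25.8 CPM without LPS and 82.7, 66 and 77.9 CPM with it (1.53 ± 0.15). Amd1, an enzyme of polyamine synthesis, had 146, 155 and 144 CPM without LPS and 52.7, 50.4 and 59 CPM with it (-1.46 ± 0.1, adjusted p = 6.7e-08). In the list of prostaglandin and leukotriene genes, 18 members were tested, and 9 rose, 3 fell and 6 were not called. Ptgs2 (COX-2), which commits arachidonate to prostaglandins, had 19.5, 21.8 and 20.4 CPM without LPS and 535, 473 and 449 CPM with it (4.56 ± 0.28, adjusted p = 1.68e-08). Ptges, which completes prostaglandin E2, had 6.77, 5.35 and 6.37 CPM without LPS and 476, 426 and 438 CPM with it (6.18 ± 0.3, adjusted p = 1.77e-09). Hpgd, which inactivates prostaglandin E2, had 10.4, 11.6 and 11.9 CPM without LPS and 0.305, 0.454 and 0.128 CPM with it (-5.22 ± 0.65, adjusted p = 1.84e-05). With LPS, all 3 libraries were thus high in both genes of synthesis and close to 0 in the gene of breakdown.

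An inhibitor of fibrinolysis and iron importers rose, while urokinase and thrombomodulin fell. For coagulation and fibrinolysis, 17 members were tested, and 7 rose, 5 fell and 5 were not called. Serpinb2, the plasminogen activator inhibitor PAI-2, had 2.6, 1.02 and 1.62 CPM without LPS and 149, 156 and 189 CPM with it (6.54 ± 0.27, adjusted p = 4.95e-10). Plau, the plasminogen activator urokinase that it blocks, had 250, 329 and 306 CPM without LPS and 59.1, 53.5 and 44 CPM with it (-2.5 ± 0.19, adjusted p = 1.21e-07). Thbd, the anticoagulant thrombomodulin, had 146, 123 and 131 CPM without LPS and 16.5, 11.8 and 20.7 CPM with it (-3.03 ± 0.2, adjusted p = 4.33e-08), with every LPS library far below the unstimulated range. F3, tissue factor, was not called (-0.21 ± 0.43, adjusted p = 0.761). For iron, 17 members were tested, and 10 rose, 3 fell and 4 were not called. The importers rose: Slc39a14 had 8.74, 10.5 and 8.8 CPM without LPS and 97.4, 77.8 and 100 CPM with it (3.3 ± 0.25, adjusted p = 1.47e-07) and Slc11a2 had 46.1, 47.8 and 41.7 CPM without LPS and 259, 235 and 257 CPM with it (2.47 ± 0.17, adjusted p = 5.16e-08). The transferrin receptor Tfrc had 111, 104 and 111 CPM without LPS and 249, 314 and 264 CPM with it (1.34 ± 0.11). Among acute-phase and soluble defence proteins, 12 members were tested, and 9 rose, 2 fell and 1 was not called. Ptx3, a soluble pattern recognition protein (chr3:66219910-66225805, GRCm38), had no count in the unstimulated libraries and 43.2, 46.2 and 53.5 CPM with LPS, a rise of at least 792-fold. Neutrophil markers, some of them soluble defence proteins too, also had a higher sum with LPS (values with the other markers), and their part in this list was not tested. For complement, 13 members were tested, and 6 rose, 1 fell and 6 were not called; the C5a receptor C5ar1 rose (0.95 ± 0.19) and the second C5a receptor C5ar2 fell (-1.2 ± 0.21). In the TCA cycle and itaconate list, 23 members were tested, and 1 rose, 1 fell and 21 were not called, and the gene that rose was Acod1.

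By number, the lysosomal list held the most falls of the 45. Of its 52 tested members, 32 fell (61.5%, against 14.8% of all genes), 4 rose and 16 were not called (median -0.66). By share, the scavenger and efferocytosis list held slightly more falls (62.5%). The cathepsin Ctsl had 205, 178 and 183 CPM without LPS and 66.8, 61.6 and 58.6 CPM with it (-1.6 ± 0.13, adjusted p = 2.79e-07) and Ctsd had 1346, 1176 and 1326 CPM without LPS and 728, 664 and 709 CPM with it (-0.87 ± 0.14, adjusted p = 0.000163). In both, all LPS libraries lay below all unstimulated ones, by factors that differed between genes. Sgsh, an enzyme of heparan sulfate breakdown, fell (-2.73 ± 0.31), as did the membrane protein Lamp1 (-0.64 ± 0.11). Tfeb, the transcription factor of lysosomal genes, had 101, 122 and 120 CPM without LPS and 59.3, 48.1 and 54.9 CPM with it (-1.08 ± 0.17, adjusted p = 0.000197). The calcium channels of the lysosome moved apart: Mcoln3 had 15.2, 11.8 and 15.5 CPM without LPS and 1.52, 1.04 and 1.28 CPM with it (-3.45 ± 0.36, adjusted p = 2.94e-06), and Mcoln2 had 23, 25.7 and 23 CPM without LPS and 171, 86.2 and 62.6 CPM with it (2.16 ± 0.28, adjusted p = 2.71e-05). Among autophagy genes, 38 members were tested, and 5 rose, 15 fell and 18 were not called, with Sqstm1 and Optn (1.13 ± 0.11), both cargo receptors, among those that rose. Calcoco1, another autophagy receptor, fell, with a log2 fold change of -1.13 to -0.94 over the 22 alternatives. Atg4c (-1.54 to -1.38) and Uvrag (-1.11 to -0.88) fell too.

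In the lists of lipid storage, lipid sensing and cholesterol export, a larger share fell than of all genes, and some members rose. Of the triglyceride and lipid droplet genes, 29 members were tested, and 5 rose (17.2%), 9 fell (31%) and 15 were not called. The shares over all genes tested were 15.3% and 14.8%. Lpin1, which makes diacylglycerol, had 13.6, 22.9 and 21.7 CPM without LPS and 0.915, 1.43 and 1.8 CPM with it (-3.81 ± 0.31, adjusted p = 2.77e-07). Acsl1, which activates long-chain fatty acids, had 116, 102 and 107 CPM without LPS and 463, 547 and 531 CPM with it (2.24 ± 0.12, adjusted p = 6.19e-09). In the list of cholesterol export, LXR and nuclear receptors, 31 members were tested, and 4 rose (12.9%), 11 fell (35.5%) and 16 were not called. Pparg, a lipid-sensing factor, had 45.5, 52.8 and 53.6 CPM without LPS and 5.31, 4.28 and 4.1 CPM with it (-3.47 ± 0.29, adjusted p = 3.51e-07). Its target and LXR target Abcg1, which exports cholesterol, had 93.3, 160 and 134 CPM without LPS and 21, 21 and 38.6 CPM with it (-2.26 ± 0.26, adjusted p = 8.17e-06). In both the LPS libraries were far lower. Nr4a2 had 47, 60.9 and 50.2 CPM without LPS and 4.63, 5.13 and 5.32 CPM with it (-3.39 ± 0.2, adjusted p = 1.41e-08), while its relative Nr4a3 had 8.22, 15.5 and 16.3 CPM without LPS and 32.9, 42.5 and 56.9 CPM with it (1.73 ± 0.3, adjusted p = 0.000421). The clock repressors Nr1d1 and Nr1d2 fell by 2.88 and 1.97 on the log2 scale.

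Surface receptors for small ligands moved in both directions. Of the G protein-coupled receptors for metabolites and lipids, 27 members were tested, and 12 rose, 9 fell and 6 were not called. Adora2a, the adenosine receptor that restrains inflammation, had 14.5, 18.6 and 20 CPM without LPS and 231, 216 and 231 CPM with it (3.67 ± 0.19, adjusted p = 2.85e-09). Gpr84, a receptor for medium-chain fatty acids, had 7.41, 10.3 and 8.74 CPM without LPS and 52.9, 68.9 and 80.4 CPM with it (2.93 ± 0.17, adjusted p = 1.29e-08). Lpar6, a lysophosphatidic acid receptor, had 130, 116 and 121 CPM without LPS and 10.4, 6.17 and 8.65 CPM with it (-3.86 ± 0.24, adjusted p = 1.76e-08). Groups did not overlap in any of the 3. Sucnr1, the succinate receptor, had no count in these 6 libraries. The formyl peptide receptors rose: Fpr1 had 1.27, 2.52 and 1.37 CPM without LPS and 96.3, 87.6 and 122 CPM with it (5.88 ± 0.26, adjusted p = 7.51e-10) and Fpr2 had 6.88, 7.27 and 4.24 CPM without LPS and 101, 81.9 and 84.5 CPM with it (3.86 ± 0.27, adjusted p = 5.55e-08). Among chemokine receptors, 13 members were tested, and 5 rose, 4 fell and 4 were not called. Ccr7, which guides cells to lymph nodes, had 1.21, 1.74 and 3.12 CPM without LPS and 22.4, 19.5 and 38.5 CPM with it (3.73 ± 0.35, adjusted p = 1.2e-06). Cxcr4, which retains cells in bone marrow, had 821, 791 and 849 CPM without LPS and 246, 249 and 246 CPM with it (-1.73 ± 0.13, adjusted p = 1e-07). Ccr2, which classical monocytes use to leave it, had 73.3, 98.6 and 89.2 CPM without LPS and 37.1, 31.9 and 41.5 CPM with it (-1.24 ± 0.31, adjusted p = 0.00708). Of the scavenger and efferocytosis receptors, 16 members were tested, and 5 rose, 10 fell and 1 was not called (median -0.92). Olr1, a receptor for oxidised lipoprotein, had 37.8, 36.1 and 33.4 CPM without LPS and 78.5, 94.5 and 97.1 CPM with it (1.33 ± 0.14), and Lrp1, a large endocytic receptor, fell (-1.8 ± 0.24).

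Part of the BCL2 family and some cell cycle genes rose. In the BCL2 family, 18 members were tested, and 7 rose, 2 fell and 9 were not called. Bcl2a1d, an anti-apoptotic member with near-identical copies whose reads may be split, had 3.36, 2.95 and 3.43 CPM without LPS and 280, 244 and 238 CPM with it (6.29 ± 0.29, adjusted p = 1.22e-09). The pro-apoptotic Bmf had 28.9, 37.3 and 36.4 CPM without LPS and 8.29, 7.53 and 11.8 CPM with it (-1.89 ± 0.23, adjusted p = 1.38e-05), and Mcl1 was not called (-0.14 ± 0.1, adjusted p = 0.328). Bcl2l11, also pro-apoptotic, rose instead, with a log2 fold change of 0.68 to 0.88 over the 22 alternatives. Of the cell cycle and DNA replication genes, 39 members were tested, and 9 rose (23.1%), 6 fell (15.4%) and 24 were not called. Of all genes tested, 15.3% rose and 14.8% fell. Mki67, a marker of dividing cells, had 933, 900 and 863 CPM without LPS and 874, 1049 and 1078 CPM with it (0.15 ± 0.13, adjusted p = 0.412), with overlapping groups. Plk2, a stress-induced kinase, had 75.3, 54.9 and 60 CPM without LPS and 1146, 1025 and 794 CPM with it (3.96 ± 0.32, adjusted p = 2.35e-07).

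A stricter view takes called genes below 1 CPM in each library of 1 group and at 5 CPM or more in each library of the other. Predicted genes, clones with accession-like names and pseudogenes were left out of the count. Mitochondrially encoded, ribosomal protein, immunoglobulin and T-cell receptor genes were left out as well. Among the genes that remained, 32 were switched on and 9 switched off. Besides the cytokines above, those switched on included Slamf1, a receptor of the SLAM family, which had no count without LPS and reached 8.23, 8.5 and 13.4 CPM in the LPS libraries, a rise of at least 167-fold. Gja1, the gap junction protein connexin 43, had 0.579, 0.361 and 0.437 CPM without LPS and 15.3, 14.9 and 15.4 CPM with it (5.02 ± 0.34, adjusted p = 4.13e-08). Mras, a RAS-related GTPase, had 0.521, 0.301 and 0.374 CPM without LPS and 12, 11.4 and 18.3 CPM with it (5.09 ± 0.39, adjusted p = 1.71e-07). Cd38, which degrades NAD, had 0.636, 0.962 and 0.874 CPM without LPS and 38.2, 27.5 and 36.1 CPM with it (5.35 ± 0.56). All LPS libraries of these 4 genes are above 5 CPM by the definition, and they differed among themselves by less than 2-fold. Among those switched off, Hpgd was described above. Naip1, a component of the inflammasome that senses bacterial needle proteins, had 6.36, 8.05 and 7.68 CPM without LPS and 0.305, 0.195 and 0 CPM with it (-5.39 ± 0.47, adjusted p = 5.45e-07; -6.12 without LPS replicate 1). Atp6v0d2, a subunit of the lysosomal proton pump, had 9.14, 8.35 and 7.24 CPM without LPS and 0.732, 0.844 and 0.962 CPM with it (-3.28 ± 0.29, adjusted p = 6.78e-07). Krt80, a keratin, had 9.03, 12.6 and 10.2 CPM without LPS and 0.854, 0.844 and 0.962 CPM with it (-3.57 ± 0.38, adjusted p = 3.83e-06), and Slc8a1, a sodium and calcium exchanger, changed by -3.23 ± 0.41.

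**Figure D3:**
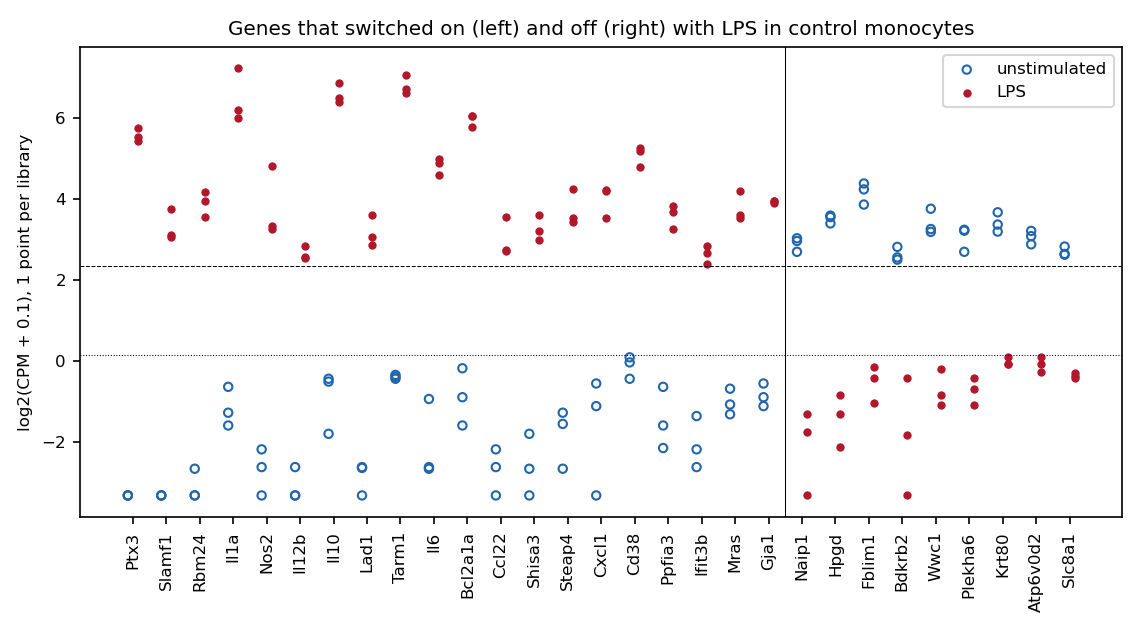
Level of genes switched on (20 of the 32 counted) and switched off (all 9 counted) by LPS in control monocytes, 1 point per library, as log2(CPM + 0.1). Predicted genes and the other classes left out of the count are not drawn. The dashed line marks 5 CPM and the dotted line 1 CPM, and each gene's 3 libraries of 1 group lie below the dotted line and the 3 of the other on or above the dashed line.

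**Figure D4:**
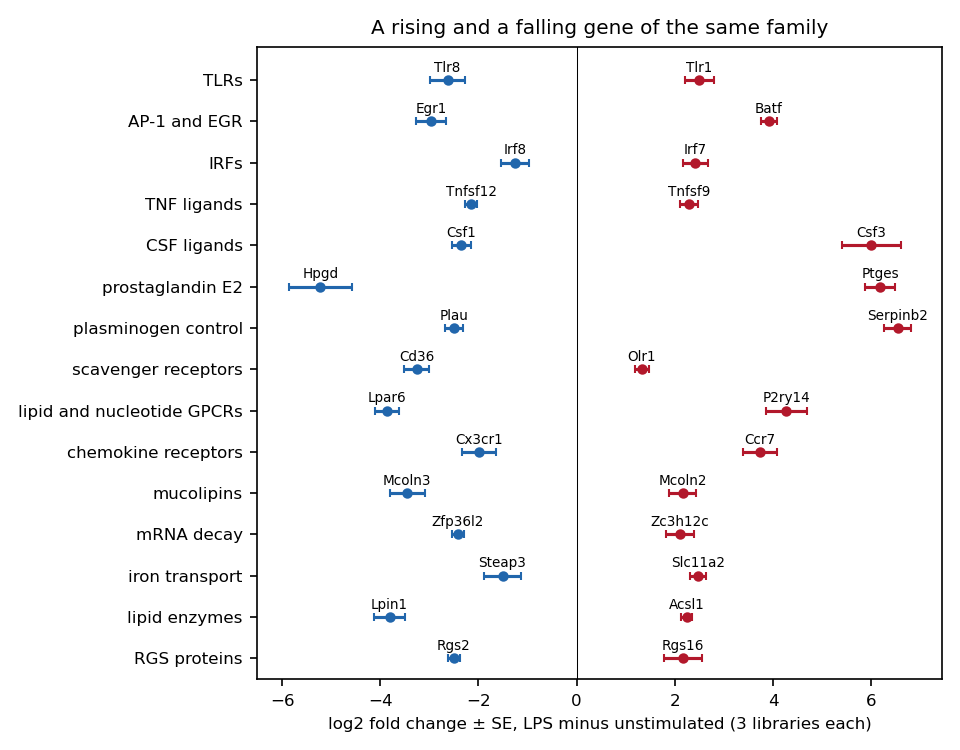
Pairs of related genes of which 1 rose and the other fell with LPS, as log2 fold change ± SE over 3 libraries per group. The pairs were chosen for their opposite moves after the values were seen, so the pattern is a description: in the pair Tlr1 and Tlr8, for example, the changes are 2.5 and -2.63.

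Further members of these pairs, and the falling genes whose promoters were shown, had the following values. P2ry14, a receptor for UDP-glucose, had 0.405, 0.18 and 0.624 CPM without LPS and 5.37, 8.89 and 9.42 CPM with it (4.27 ± 0.42, adjusted p = 1.67e-06), against the fall of Lpar6. Rgs16, which shortens G protein signals, had a change of 2.16 ± 0.39, and Rgs2, of the same family, had 94.9, 89.6 and 100 CPM without LPS and 16.6, 17.7 and 16 CPM with it (-2.5 ± 0.13, adjusted p = 3.91e-09). Steap3, an endosomal iron reductase, had 3.76, 3.85 and 3.62 CPM without LPS and 0.976, 1.17 and 1.8 CPM with it (-1.51 ± 0.37, adjusted p = 0.00568), against the rise of the importer Slc11a2. Smad3, the TGF-beta signal carrier whose promoter is shown above, had 194, 230 and 223 CPM without LPS and 30.9, 29.1 and 31 CPM with it (-2.83 ± 0.11, adjusted p = 4.04e-10). Fam102a, the other falling gene with its promoter shown, had 89.4, 117 and 90 CPM without LPS and 5.61, 5.65 and 7.5 CPM with it (-3.98 ± 0.21, adjusted p = 3.91e-09). In both, all 3 LPS libraries were several times lower.

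Of 1022 long non-coding RNAs tested, 138 rose (13.5%) and 66 fell (6.46%), against 15.3% and 14.8% of all genes. Their levels were low, which makes a change harder to call. The median without LPS was 1.12 CPM for intergenic and 0.917 CPM for antisense ones, against 17.0 CPM for all genes tested. The part of level in these shares was not tested. Mir155hg, the host transcript of miR-155 (chr16:84703167-84715245, GRCm38), had 1.39, 2.4 and 1.62 CPM without LPS and 47.3, 40.3 and 29.6 CPM with it (4.43 ± 0.3, adjusted p = 4.33e-08). The mature miRNAs were not measured. Their RefSeq sequences (GRCm38.p6, plus strand of chromosome 16) are shown because this microRNA is a known regulator of inflammatory signalling, with the seed (bases 2 to 8) in capitals.
mmu-miR-155-5p, chr16:84714143-84714165: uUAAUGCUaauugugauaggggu
mmu-miR-155-3p, chr16:84714182-84714202: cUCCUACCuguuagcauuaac

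BC018473, a non-coding transcript, had no count without LPS and reached 5.43, 6.1 and 7.05 CPM in the LPS libraries, a rise of at least 103-fold. Among non-coding RNAs with at least 5 CPM in the higher group, Gm13391 had the largest fall, at 37.4, 29.7 and 30.1 CPM without LPS and 2.01, 2.14 and 0.641 CPM with it (-4.33 ± 0.34, adjusted p = 2.05e-07). Tnfsf13os and Map2k3os fell (-1.79 ± 0.36 and -1.71 ± 0.32), and so did the genes they lie opposite to, Tnfsf13 (-1.52 ± 0.3) and Map2k3 (-0.67 ± 0.12). Whether the counting used strand is not given in the sources at hand, and an antisense transcript and its partner cannot be told apart.

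Some genes rose by an amount that differed between the LPS libraries. Of 1048 rising genes with a mean of at least 50 CPM with LPS, 39 had a highest LPS library at least 2 times the lowest, against a median ratio of 1.22. In 33 of the 39, replicate 1 was the highest and replicate 3 the lowest. Over all 1048, replicate 1 was the highest in 43.1% and replicate 3 the lowest in 32.3%. Nqo1, a quinone reductase and a known target of NRF2, the factor of the oxidant response, had 43, 21.8 and 20.7 CPM without LPS and 158, 78.8 and 47.8 CPM with it (1.73 ± 0.42, adjusted p = 0.00551). Gclm, of glutathione synthesis, had 423, 239 and 239 CPM without LPS and 1057, 723 and 488 CPM with it (1.33 ± 0.38, adjusted p = 0.016), a call that was lost without unstimulated replicate 2 or 3 or LPS replicate 1. Prdx1, a peroxidase, had 1007, 543 and 677 CPM without LPS and 3203, 1811 and 1149 CPM with it. These genes were highest in replicate 1 without LPS as well, which held for 30 of the 39. Hmox1, which degrades heme, had 2322, 878 and 1087 CPM without LPS and 7377, 4459 and 2323 CPM with it, and its call was lost without LPS replicate 1. Replicate 3 was the highest in 4 genes: Il1b above, Il1a (63.4, 73.3 and 149 CPM with LPS), Dusp2, and the C3a receptor C3ar1 (55.1, 42.5 and 113 CPM; 1.12 ± 0.34, adjusted p = 0.0217). The call of C3ar1 was lost without unstimulated replicate 1 or 3 or LPS replicate 3. The 5 transcripts in which libraries differed (above) are high in LPS replicate 3 and low in replicates 1 and 2, and their part in this spread was not tested.

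**Figure D5:**
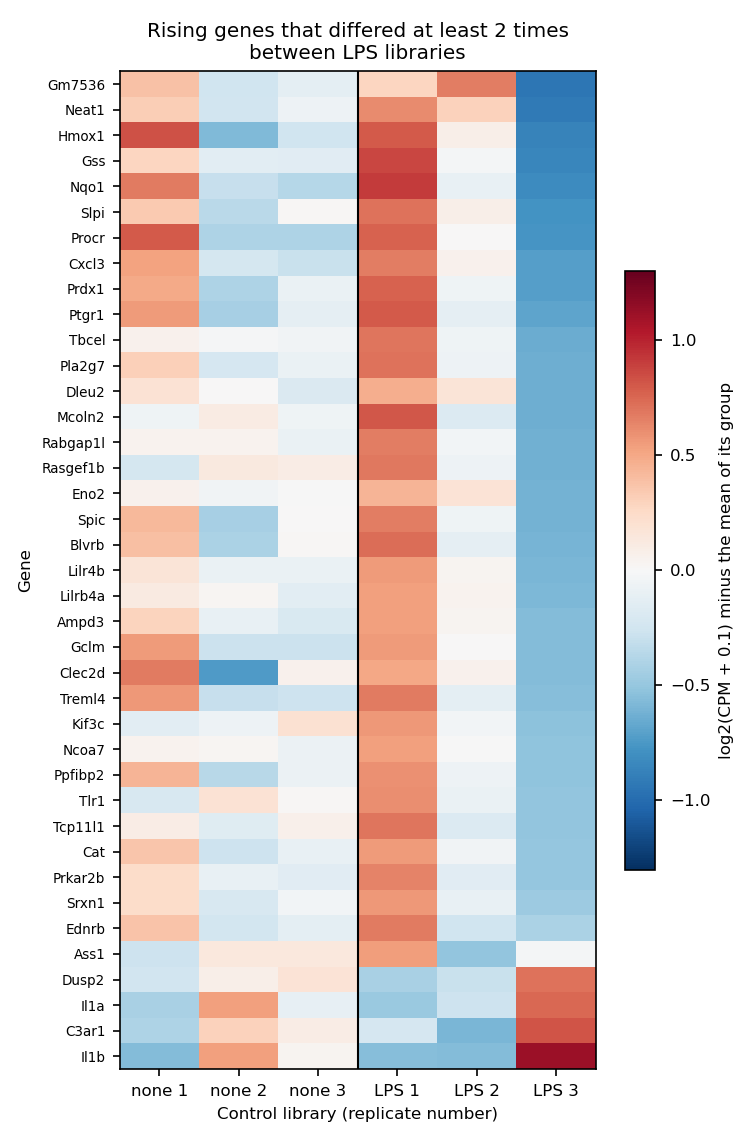
Level of the 39 rising genes whose LPS libraries differ at least 2-fold, in the 6 control libraries, as log2(CPM + 0.1) minus the mean of the library's own group. Most rows are highest in LPS replicate 1 and lowest in LPS replicate 3, and Il1b, Il1a, C3ar1 and Dusp2 show the reverse for replicate 3.

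The markers of the sorted cell were checked in the same way. Of the Ly6C-high monocyte markers, 16 members were tested, and 5 rose, 5 fell and 6 were not called, and their summed level was 13855 to 14751 CPM without LPS and 13756 to 15291 CPM with it. Ly6c2, which encodes the sorted antigen, had 610, 578 and 590 CPM without LPS and 1150, 1299 and 1250 CPM with it (1.06 ± 0.16). Of the Ly6C-low monocyte markers, 12 members were tested, and 2 rose, 5 fell and 5 were not called. Neutrophil markers summed to 11088 to 16722 CPM without LPS and 17503 to 23131 CPM with it, higher with LPS in each library; 15 members were tested, and 6 rose, 2 fell and 7 were not called. Lcn2, also an LPS target of monocytes, had 589, 405 and 383 CPM without LPS and 1259, 1519 and 1505 CPM with it, and Ly6g, which is more particular to neutrophils, had 4.74, 4.81 and 2.06 CPM without LPS and 7.07, 7.79 and 8.33 CPM with it (0.99 ± 0.32, adjusted p = 0.0281), a call lost without unstimulated replicate 3 or LPS replicate 2 or 3. The 2 that fell were Mmp8 (log2 fold change -1.52 to -1.29 over the 22 alternatives) and Cxcr2 (-1.47 to -1.21). Both kept the call in all of these. Macrophage markers summed to 247 to 289 CPM without LPS and 1012 to 1100 CPM with it, and 5 members were tested, and 2 rose, 0 fell and 3 were not called. The defining macrophage genes C1qa, C1qb, C1qc, Mertk and Timd4 had too few counts to test, and the genes that rose were Vcam1 (134, 105 and 125 CPM without LPS and 634, 833 and 741 CPM with it) and Spic (39.7, 21.9 and 29.8 CPM without LPS and 265, 160 and 109 CPM with it). Of the dendritic cell markers, 10 members were tested, and 6 rose, 0 fell and 4 were not called, at sums of 48.3 to 75.1 CPM without LPS and 107 to 147 CPM with it. Of the myeloid progenitor markers, 11 members were tested, and 3 rose, 0 fell and 8 were not called, with sums of 2910 to 3867 CPM without LPS and 2448 to 5181 CPM with it. T and NK cell markers summed to 24.4 to 25.8 CPM without LPS and 19.6 to 31.9 CPM with it, and Cd3d, Cd3e and Cd3g were too low to test. B cell markers summed to 128 to 155 CPM without LPS and 76 to 135 CPM with it, erythroid markers to 7.09 to 40.4 CPM without LPS and 26.5 to 55.3 CPM with it, eosinophil, basophil and mast cell markers to 19.3 to 22.5 CPM without LPS and 24.1 to 46.2 CPM with it, and megakaryocyte markers to 2.37 to 6.19 CPM without LPS and 2.44 to 3.72 CPM with it, with Gp1bb at 0. The part of these markers in the gene changes above was not tested.

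Whether the response of control monocytes differed from that of monocytes from succinate mice was tested as the difference between both LPS effects over all 12 libraries. edgeR's quasi-likelihood test called 0 of 14324 genes (0.0%), with 560 at an unadjusted p below 0.05 (3.91%). DESeq2 called 3 genes. Of these, Peli1, a ubiquitin ligase of TLR signalling, had 413, 376 and 339 CPM in control LPS libraries and 226, 248 and 272 CPM in succinate LPS libraries, and a difference in log2 fold change of 0.79 (adjusted p = 0.0235 by DESeq2 and 0.984 by edgeR). Without a filter on low genes, edgeR called 71, of which 63 are tested genes with the filter.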

How the data were processed

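RNA was sequenced from sorted mouse bone marrow monocytes, 3 libraries in each of 4 groups taken from the sample titles. The deposited files hold raw whole-number counts of reads per gene, which the authors produced, and the submitters' processing notes name Trim Galore and mm10. No source used here gives the aligner, the counting tool, the annotation or the handling of strand, so reads of overlapping, antisense and near-identical genes could be assigned in more than 1 way. The files list 54532 genes, of which 28563 had a count.

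Counts were tested as deposited with edgeR 4.0.16 (limma 3.58.1, R 4.3.3). filterByExpr left 14324 genes and at least 99.88% of the counts of each control library. After TMM scaling, a quasi-likelihood model with a mean for each group was fitted over the 12 libraries, with a common biological coefficient of variation of 0.167. The contrast was LPS minus unstimulated in control mice, and the difference between this and the same contrast in succinate mice was tested in the same fit. Calls used a Benjamini-Hochberg adjusted p below 0.05. At this depth the median SE of a log2 fold change was 0.19. No pair of libraries of 1 group held the same counts within sampling noise (chi-square per degree of freedom 6.42 to 38.72), so none was taken for a library deposited more than once, which does not show that they are independent samples. Against a group with no count, a fold is a lower bound (the group is set to 3 counts in all), and against 1 to 3 counts it is a ratio with its exact 95% counting interval. Intervals and bounds cover counting error only. Coordinates are from GENCODE M21 (GRCm38), and sequences from RefSeq (GRCm38.p6), whose promoters matched 80.7% of the tested protein-coding genes.

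The 45 gene lists, the 11 marker lists and the rule for named genes were chosen with earlier results of these data known. The rule took the 20 called genes per direction with the largest difference in mean CPM, switched genes, the members with the smallest p in each list (up to 5) and the leading gene in the opposite direction, up to 10 variable rising genes, up to 6 non-coding RNAs per direction and the genes of the printed promoters. It selects 339 genes, not all of which are printed, and the text names others (43 were followed through all alternatives) that were chosen after their values were seen. Alternatives were no filter, a stricter filter (1 CPM in at least 6 libraries), other scalings, DESeq2 1.42.0, limma-voom, the library difference in 5 transcripts as a covariate, the replicate number as a block, a fit to the 6 control libraries, and leaving out each of the 12 libraries in turn. On simulated counts for this contrast (14008 genes in the step), 98 genes were changed 2-fold and 97 genes 4-fold. Of these, 59.2% and 89.7% were called in the right direction, and 2.68% of the calls were false. Far more genes (4306) were called in the data, and the adjustment depends on that number, so these rates need not hold there. A few genes and 1 gene list are not reported here.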

Additional observations from a re-analysis of the deposited data

How the results depend on the processing

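Leaving out each of the 12 libraries in turn gave 1801 to 2308 genes that rose and 1533 to 2239 that fell (1801 to 2149 and 1533 to 1899 for the 6 control libraries), 1110 to 1283 and 763 to 902 by at least 2-fold, and 0 to 0 in the difference between the LPS effects of control and succinate mice. The other alternatives gave 1865 to 2391 genes that rose and 1881 to 2651 that fell. For the difference between the effects, edgeR without a filter called 71 genes and DESeq2 3. Of 346 named genes that were called, 24 lost the call in at least 1 of the 22 alternatives and 322 kept it wherever they were tested (2 of them, Cxcl11 and Il19, in only 19). Of 2464 list counts, 2368 stayed within 1.5 times of the reported one. Correlations of deviations from the group mean were 0.119, -0.129 and 0.207 between libraries of the same replicate number (1, 2 and 3). Between different numbers they ran from -0.325 to 0.282. With 3 libraries per group these values can neither show nor exclude that replicate numbers pair the samples. With the replicate block, 2391 genes rose, 2365 fell and 0 differed between the effects. With the block in the 6 control libraries alone, a fit chosen after seeing the data, 2301 rose and 2364 fell. The sign turned only in genes that were not called: Hba-a1 with the library covariate (-0.03) and, with 1 control library left out in turn, Hba-a2 (-1.15 to 0.86), Hbb-bs (-0.4 to 2.05; -0.04 without unstimulated replicate 2, -0.4 without LPS replicate 2), Hba-a1 (-0.53 to 1.47), Itga2b (-0.67 to 0.25), Alas2 (-0.03 to 0.87), Cd74 (-0.48 to 0.18), F3 (-0.45 to 0.22) and Tlr4 (-0.37 to 0.0; 0.0 without LPS replicate 1). The cause was not tested. With 3 libraries per group, changes near 2-fold can be missed (59.2% were called on simulated counts), so a gene not called is not shown to be unchanged.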

Other observations

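Some of the genes that rose lay next to each other on the chromosome. These stretches were looked for after the values were seen. Of 11832 tested protein-coding genes, 982 (8.3%) rose at least 2-fold, and 84 of these lay in 18 stretches of at least 4 neighbouring tested protein-coding genes that all rose at least 2-fold, the longest of 7 genes. The stretch at chr17:17827158-17971677 (GRCm38) holds Spaca6, the hyaluronan synthase Has1 and the formyl peptide receptors Fpr1, Fpr2 and Fpr3, with log2 fold changes of 3.76 to 5.88 (median 5.18). Fpr1 had 1.27, 2.52 and 1.37 CPM without LPS and 96.3, 87.6 and 122 CPM with it, and Fpr2 had 6.88, 7.27 and 4.24 CPM without LPS and 101, 81.9 and 84.5 CPM with it. Others held Ifi200 genes (chr1:173849126-174248450), Schlafen genes (chr11:82951349-83190216) and guanylate-binding protein genes (chr3:142493978-142638008). These are families of related copies whose reads the counting could split or share, and the part of this was not tested.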
